A study of Mus musculus with 7 samples.

Results

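Spinobulbar muscular atrophy (SBMA) is a neuromuscular disease caused by an expanded polyglutamine tract, and the AR113Q mouse carries such a tract as a knock-in allele. RNA of the quadriceps was hybridized to 7 one-colour Agilent arrays, each holding the RNA of 1 mouse, with 4 arrays from WT mice and 3 from AR113Q mice, all of the C57BL/6 strain. The labels give an age of 3 months and the design text 90 days, which the study places before the onset of motor symptoms. The sample labels and legends call the controls WT, whereas the results text of the study describes a knock-in control line with a shorter tract, and the design text adds the letters NCD to the AR113Q group without explaining them. The genes described here were 50 genes of autophagy and lysosome function, chosen by name with earlier results of these data known. They were measured by 74 probes of the array, all of which were kept, and each gene was represented by its brightest probe. All 50 genes were well above background on all 7 arrays and were tested among 16577 genes in all.

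Autophagy encloses cytoplasm, protein aggregates or organelles in a membrane, the autophagosome, which then fuses with lysosomes, where acid hydrolases degrade the content. A kinase complex starts the process, a lipid kinase complex marks the membrane, and ubiquitin-like conjugation attaches proteins of the Atg8 family to it, to which cargo receptors bind. In skeletal muscle, autophagy removes damaged mitochondria and aggregated protein, and it is known to rise with fasting and denervation.

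Genes were called higher or lower at an adjusted p of at most 0.05 (limma, Benjamini-Hochberg over all genes), and differentially expressed genes (DEGs) also differed by at least 1 on the log2 scale. Of the 50 genes, 28 were higher and 3 were lower in AR113Q muscle, and 16 were upregulated and 1 downregulated DEGs. Among all genes tested, 21.0% were higher and 22.6% lower, and 11.2% were upregulated and 13.1% downregulated DEGs. The median log2 fold change was 0.57 over the 50 genes and -0.01 over all genes. For 33 of the 50 genes every AR113Q array lay above every WT array, and for 5 genes below, against 24.2% and 25.1% of all genes.

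The calls fell unevenly over the steps of the pathway. Of the 28 genes that build the autophagosome, select its cargo or mark mitochondria for removal, 22 were higher and 1 was lower, and the median log2 difference was 0.88. Of the 19 genes of lysosomes and late endosomes, 6 were higher and 2 lower, with a median of 0.03. The shares higher and lower were 78.6% and 3.57% in the first set and 31.6% and 10.5% in the second. Among all genes tested they were 21.0% and 22.6%. The remaining 3 genes encode the MiT/TFE transcription factors, none of which passed the test. The difference between these sets was not tested. As RNA came from whole muscle, fewer cells of a type and less RNA per cell cannot be told apart.

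**Figure D1:**
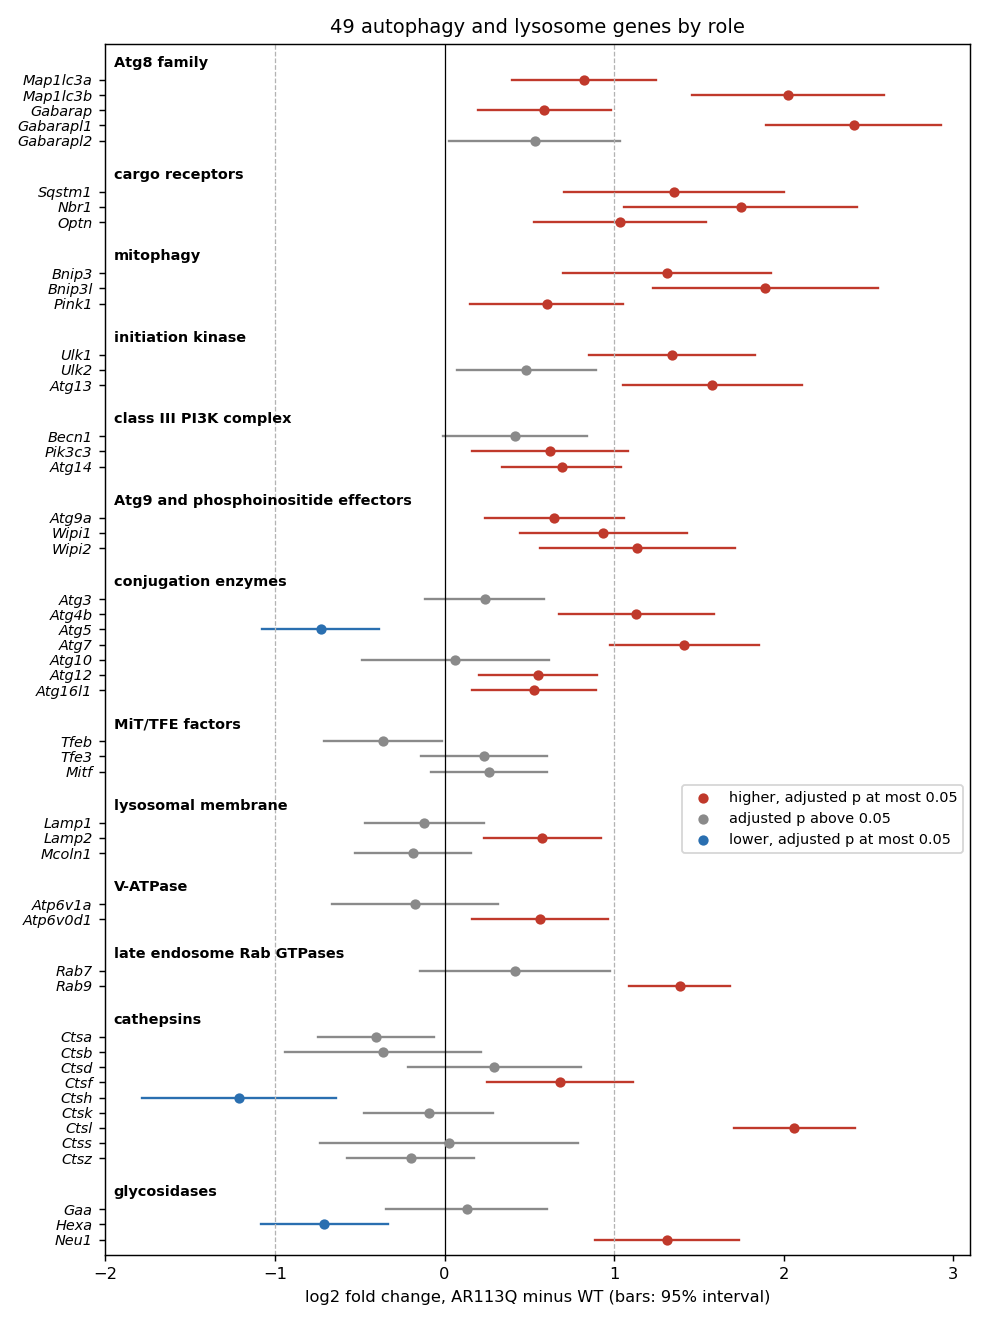
The plot shows the log2 fold change (AR113Q minus WT) of 49 of the 50 genes on the horizontal axis, grouped by role, with points for the estimate, bars for the 95% interval and dashed lines at a log2 fold change of 1 and -1. The autophagy genes in the upper part lie mostly to the right of 0, from -0.73 (Atg5) to 2.41 (Gabarapl1), whereas the cathepsins spread on both sides, from -1.21 (Ctsh) to 2.06 (Ctsl).

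Before the results by role, the arrays were compared. Between 47.7% and 55.9% of the 39429 probes were well above background on each array, the lowest share being that of AR113Q replicate 1, and 0 spots were saturated. The arrays lay on 5 slides scanned on 1 day, and the slide that held both genotypes carried WT replicate 2 and AR113Q replicate 1. AR113Q replicate 1 stood highest of the 3 AR113Q arrays for 12 of the 16 upregulated DEGs, and AR113Q replicate 3 stood lowest for 14. The median over these 16 genes of the difference from the WT mean was 1.68 on AR113Q replicate 1, 1.39 on replicate 2 and 1.20 on replicate 3 (log2), while on the 4 WT arrays it lay between -0.03 and 0.03. Over all genes the same median lay between -0.03 and 0.02 on the 7 arrays. Without AR113Q replicate 1, 21 of the 50 genes were higher, beside 16.9% of all genes, and 14 were upregulated DEGs. Each of the 17 DEGs kept its call when any 1 of the 7 arrays was left out, and so did 6 of the other 14 called genes. The call was lost, at log2 fold changes of 0.38 to 0.64 and adjusted p of 0.0504 to 0.108 (limma), for 8 genes that were higher by less than the fold threshold. These were Atg9a without AR113Q replicate 1, Atg12 and Ctsf without that array or either of 2 WT arrays, Atp6v0d1 and Gabarap without AR113Q replicate 1, AR113Q replicate 2 or some WT arrays, Pik3c3 likewise, Atg16l1 without AR113Q replicates 1 or 3 or any WT array, and Pink1 without AR113Q replicate 2 or any WT array. Within the shared slide, 1 array against 1 and so with no test, the 16 upregulated DEGs differed by 1.08 to 2.82 on the log2 scale. These genes were selected with the same 2 arrays, and for all 16 every AR113Q array lay above every WT array. The direction within the slide was therefore fixed in advance and says nothing about a slide effect.

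Promoters of the 50 genes were read for motifs that MiT/TFE factors and forkhead factors bind, the latter being known regulators of autophagy genes in muscle. RefSeq promoter sequence (GRCm38.p6, 250 bases before to 50 after the start of the gene) was matched for 41 of the 50 genes, with those of Map1lc3a, Bnip3l, Becn1, Pik3c3, Atg12, Atg16l1, Ctsb and Ctsh among the genes not matched. The letters CACGTG, the palindromic core E-box, were present in 14 of 41 genes (34.1%), beside 8.09% of 27025 genes in the table. The extended form TCACGTG, which contains the core and was searched on both strands, was present in 10 of 41 (24.4%), beside 4.29%. The forkhead motif GTAAACA, on either strand, was present in 0 of 41, beside 4.05%. Only this spelling was searched, so other spellings of a forkhead site were not counted and may be present. The core E-box was present in 9 of 17 lysosome and late endosome genes and in 5 of 21 autophagy genes. By call, it was present in 6 of 22 genes that were higher, 3 of 14 upregulated DEGs and 7 of 17 genes that were not called. These counts describe letters in a window and not binding, and the start used in muscle was not measured.

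The sequences below are the 250 bases before the start, 5′ to 3′ on the strand of the gene, with CACGTG in capitals. The promoters of Lamp1, Ctsd and Mcoln1 are shown because they hold 4, 2 and 2 copies and their genes were not called at the brightest probe, that of Bnip3 because it holds 1 copy and its gene was a DEG, and those of Gabarapl1 and Map1lc3b because they hold none and the increases of their genes were among the largest of the 50. They lie at chr8:13158911-13159160 (plus strand, Lamp1), chr7:142387828-142388077 (minus strand, Ctsd), chr8:3500269-3500518 (plus strand, Mcoln1), chr7:138909507-138909756 (minus strand, Bnip3), chr6:129532942-129533191 (plus strand, Gabarapl1), and chr8:121590188-121590437 (plus strand, Map1lc3b) of GRCm38.p6.
Lamp1: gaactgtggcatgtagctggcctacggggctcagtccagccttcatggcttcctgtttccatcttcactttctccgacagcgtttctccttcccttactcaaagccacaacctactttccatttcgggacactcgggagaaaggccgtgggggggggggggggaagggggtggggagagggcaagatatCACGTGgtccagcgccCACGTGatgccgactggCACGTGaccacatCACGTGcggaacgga
Ctsd: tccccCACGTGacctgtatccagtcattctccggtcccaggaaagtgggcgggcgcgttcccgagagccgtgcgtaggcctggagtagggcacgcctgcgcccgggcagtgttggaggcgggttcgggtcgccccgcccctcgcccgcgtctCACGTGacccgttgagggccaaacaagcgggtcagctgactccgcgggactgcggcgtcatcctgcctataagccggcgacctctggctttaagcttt
Mcoln1: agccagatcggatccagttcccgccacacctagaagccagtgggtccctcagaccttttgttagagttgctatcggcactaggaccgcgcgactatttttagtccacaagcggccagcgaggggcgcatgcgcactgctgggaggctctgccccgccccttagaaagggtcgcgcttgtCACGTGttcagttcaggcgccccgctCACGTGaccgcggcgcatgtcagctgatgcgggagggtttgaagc
Bnip3: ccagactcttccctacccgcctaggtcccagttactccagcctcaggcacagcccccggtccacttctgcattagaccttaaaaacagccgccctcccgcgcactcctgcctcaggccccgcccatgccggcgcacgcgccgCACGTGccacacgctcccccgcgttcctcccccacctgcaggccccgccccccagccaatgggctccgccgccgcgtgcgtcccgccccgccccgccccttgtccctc
Gabarapl1: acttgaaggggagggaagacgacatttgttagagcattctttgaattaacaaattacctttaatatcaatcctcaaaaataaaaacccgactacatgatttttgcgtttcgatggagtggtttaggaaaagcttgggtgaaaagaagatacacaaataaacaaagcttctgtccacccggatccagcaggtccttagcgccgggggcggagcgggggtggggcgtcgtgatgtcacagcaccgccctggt
Map1lc3b: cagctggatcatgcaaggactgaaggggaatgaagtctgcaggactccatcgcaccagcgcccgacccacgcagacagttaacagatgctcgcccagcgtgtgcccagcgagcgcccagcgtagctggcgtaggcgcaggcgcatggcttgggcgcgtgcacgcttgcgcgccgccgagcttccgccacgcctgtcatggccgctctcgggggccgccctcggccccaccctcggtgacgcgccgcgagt
In Lamp1 the copies begin 61, 45, 28 and 15 bases before the start, in Ctsd 245 and 98, in Mcoln1 71 and 45, and in Bnip3 108 bases before it. The upregulated DEGs Ctsl and Atg7 hold 1 copy each, 236 and 132 bases before the start, and are not printed. The increase of Ctsl (2.06) was larger than that of Map1lc3b (2.03), so the printed promoters do not stand for all genes with large increases.

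The Atg8 family is attached to the growing membrane and serves as the landing site for cargo receptors. Gabarapl1, of the GABARAP branch, had log2 intensities of 13.11, 13.37, 13.23 and 13.27 on the WT arrays and 16.13, 15.66 and 15.18 on the AR113Q arrays. No AR113Q array came near the WT arrays, and the difference of 2.41 ± 0.22 (SE, n = 4 and 3), or 5.32-fold, was the largest among the 50 genes (adjusted p = 0.000232, limma). There were 269 genes on the array with a larger increase. Map1lc3b, which encodes LC3B, the usual marker of autophagosomes, had values of 12.80, 12.78, 12.68 and 12.87 in WT and 15.20, 15.04 and 14.18 in AR113Q muscle. The WT arrays lay within 0.19 of each other and all AR113Q arrays were above them (log2 fold change 2.03 ± 0.25, 4.07-fold, adjusted p = 0.000629, limma). The sister genes Map1lc3a and Gabarap were higher by less than the fold threshold, with log2 fold changes of 0.82 (adjusted p = 0.00859) and 0.59 (adjusted p = 0.0247, limma for both). Gabarapl2 did not pass the test, at 0.53 with a 95% interval from 0.03 to 1.03 (adjusted p = 0.0828, limma), and its probe is placed by the array annotation on chromosome 5, whereas the RefSeq gene lies on chromosome 8.

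The cargo receptors bind ubiquitinated material and an Atg8 protein at the same time, and all 3 measured here were upregulated DEGs. Sqstm1, which encodes p62, had values of 12.85, 12.62, 12.52 and 12.92 in WT and 14.78, 13.87 and 13.59 in AR113Q muscle. The groups did not overlap, and AR113Q replicate 1 stood apart from the other AR113Q arrays (log2 fold change 1.35 ± 0.28, 2.55-fold, adjusted p = 0.00605, limma). Nbr1, a receptor that acts with p62 on ubiquitinated aggregates and on peroxisomes, had values of 7.91, 8.10, 8.11 and 8.04 in WT and 10.56, 9.59 and 9.20 in AR113Q muscle. Its WT arrays were close together and far below all AR113Q arrays, of which replicate 1 was again the highest (1.74 ± 0.30, 3.35-fold, adjusted p = 0.00257, limma). Optn, which encodes optineurin, a receptor for ubiquitinated mitochondria and aggregates, had values of 7.29, 7.81, 7.35 and 8.0 in WT and 8.89, 8.50 and 8.55 in AR113Q muscle. The WT arrays spread more here, without reaching the AR113Q arrays (1.04 ± 0.22, 2.05-fold, adjusted p = 0.00674, limma).

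Mitochondria are marked for removal by BNIP3 and its relative BNIP3L (NIX), outer membrane proteins that bind Atg8 proteins directly, or through the kinase PINK1. Bnip3l, Bnip3 and Pink1 were all higher, the first pair as DEGs. Bnip3l had values of 12.52, 12.26, 12.56 and 12.35 in WT and 15.07, 14.00 and 13.87 in AR113Q muscle. AR113Q replicate 1 was well above the other AR113Q arrays, and even those lay above every WT array (1.89 ± 0.29, 3.71-fold, adjusted p = 0.00155, limma). The array annotation places this brightest probe at chr12:18224355-18224414 (mm9), off the chromosome 14 of the RefSeq gene. Further Bnip3l probes are placed beside it, at chr12:18224254-18224313 and chr12:18224478-18224537 (mm9). However, the Bnip3l probe placed at chr14:67604077-67604136 (mm9) gave 9.85, 9.91, 9.58 and 10.03 in WT and 12.03, 11.77 and 11.84 in AR113Q muscle, a log2 difference of 2.04 (adjusted p = 0.000136, limma over all probes). On that probe the AR113Q arrays were close together, and replicate 1 did not stand apart. Bnip3 had values of 15.49, 15.18, 15.32 and 15.24 in WT and 17.23, 16.58 and 16.05 in AR113Q muscle. Its groups did not overlap (1.31 ± 0.27, 2.48-fold, adjusted p = 0.00541, limma), but its other probes gave 1.70 and 0.49, the last of which did not pass the test (adjusted p = 0.0506, limma over all probes). Pink1 was higher by 0.60 (adjusted p = 0.0374, limma).

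**Figure D2:**
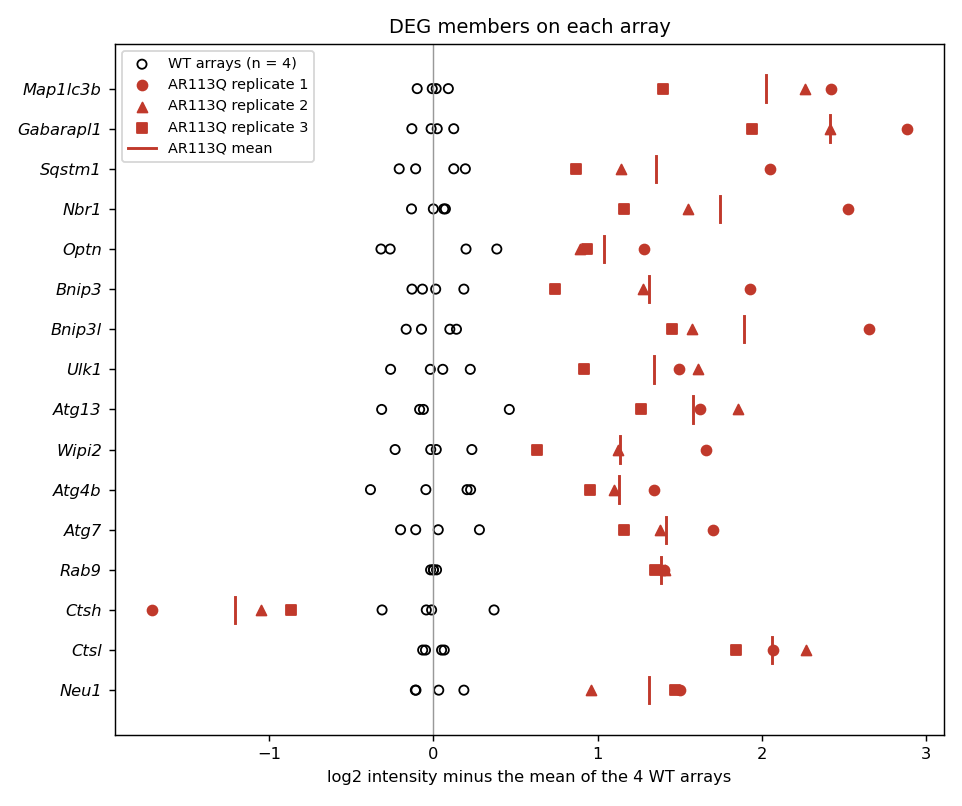
For 16 of the 17 DEGs, the plot gives the log2 intensity of each array minus the mean of the 4 WT arrays, with open circles for WT, filled symbols for the 3 AR113Q arrays and a bar for the AR113Q mean. The genotypes do not overlap for any of the 16 genes, the AR113Q arrays of Rab9 and Ctsl lie close together, and AR113Q replicate 1 stands apart for Nbr1 and Bnip3l.

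Autophagy starts with the ULK kinase, held in a complex with ATG13. Ulk1 had values of 12.56, 12.73, 12.48 and 12.24 in WT and 14.00, 14.11 and 13.42 in AR113Q muscle. Every AR113Q array was above every WT array (1.34 ± 0.21, 2.53-fold, adjusted p = 0.00184, limma). Atg13 had values of 10.30, 10.82, 10.05 and 10.28 in WT and 11.98, 12.22 and 11.63 in AR113Q muscle. WT replicate 2 was the highest WT array and still lay below the AR113Q arrays (1.58 ± 0.23, 2.99-fold, adjusted p = 0.00127, limma). Ulk2, the related kinase, did not pass the test at its brightest probe (0.48, 95% interval from 0.08 to 0.89, adjusted p = 0.0569, limma), and its dimmer probe gave -0.91 (adjusted p = 0.0108, limma over all probes), so that no direction can be given for this gene.

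The class III phosphatidylinositol 3-kinase complex makes the lipid that recruits WIPI proteins. None of its 3 genes was a DEG. Its catalytic subunit Pik3c3 (0.62, adjusted p = 0.0363) and Atg14 (0.69, adjusted p = 0.0078, limma for both), the subunit that directs it to autophagy, were higher, and Becn1, which encodes Beclin 1, was not called (0.41, 95% interval from -0.01 to 0.84, adjusted p = 0.103, limma). Wipi2, which brings the conjugation machinery to that lipid, had values of 8.48, 8.27, 8.02 and 8.23 in WT and 9.91, 9.37 and 8.88 in AR113Q muscle. The 3 AR113Q arrays spread over 1.03 on the log2 scale, all above WT (1.14 ± 0.25, 2.20-fold, adjusted p = 0.0077, limma). Wipi1 (0.94, adjusted p = 0.00919) and Atg9a (0.65, adjusted p = 0.02, limma for both), whose product is the membrane scramblase of the early autophagosome, were higher as well.

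In the conjugation system, ATG7 is the activating enzyme, ATG3 and ATG10 transfer the ubiquitin-like proteins, ATG12, ATG5 and ATG16L1 form the ligase, and ATG4B trims and releases Atg8 proteins. Atg7 had values of 7.88, 8.27, 8.02 and 7.79 in WT and 9.69, 9.36 and 9.14 in AR113Q muscle. The groups were apart (1.41 ± 0.19, 2.66-fold, adjusted p = 0.000963, limma), and a dimmer probe gave a smaller difference of 0.73 (adjusted p = 0.0347, limma over all probes). Atg4b had values of 6.63, 6.96, 7.21 and 7.24 in WT and 8.36, 8.11 and 7.96 in AR113Q muscle. All AR113Q arrays exceeded all WT arrays (1.13 ± 0.20, 2.19-fold, adjusted p = 0.00287, limma). The 3 ligase subunits did not move together. Atg12 (0.55, adjusted p = 0.0201) and Atg16l1 (0.53, adjusted p = 0.0285) were higher, while Atg5 was lower by 0.73 (log2 fold change -0.73, adjusted p = 0.00562, limma for all 3), with values of 10.06, 9.74, 10.03 and 9.96 in WT and 9.22, 9.32 and 9.12 in AR113Q muscle. Atg5 was the only gene among the 28 autophagy genes that was called lower, and its groups did not overlap. Atg3 (0.24, 95% interval from -0.11 to 0.59) and Atg10 (0.06, from -0.49 to 0.61) were not called.

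TFEB, TFE3 and MITF are transcription factors that bind E-box motifs in promoters of lysosome and autophagy genes, and they are mainly controlled by their location in the cell rather than by RNA level. Tfeb had a log2 fold change of -0.36 (95% interval from -0.71 to -0.01, adjusted p = 0.0876), Tfe3 of 0.23 (from -0.14 to 0.60, adjusted p = 0.278) and Mitf of 0.26 (from -0.08 to 0.60, adjusted p = 0.19, limma for all 3). The groups overlapped for Tfe3, and every AR113Q array was below WT for Tfeb and above WT for Mitf.

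Among the 19 lysosome and late endosome genes, 31.6% were higher and 10.5% lower, beside 21.0% and 22.6% of all genes. LAMP1 and LAMP2 are the major proteins of the lysosomal membrane, and MCOLN1 is its calcium channel. Lamp2 was higher by 0.58 (adjusted p = 0.0156, limma), whereas Lamp1, whose promoter holds the 4 E-box cores printed above, was not called (-0.12, 95% interval from -0.47 to 0.23), and its WT arrays of 14.98, 15.05, 14.80 and 14.85 enclosed 2 of the AR113Q values of 14.95, 14.63 and 14.83. Mcoln1 was not called at its brightest probe (-0.19, from -0.53 to 0.16). A second Mcoln1 probe was well above background on all 3 AR113Q arrays and not well above background on any of the 4 WT arrays, and was at least 1.41-fold higher in AR113Q muscle. The bound sets the AR113Q mean against, on each WT array, the higher of the probe's own signal and the lowest signal that was well above background, and as the probe passed the filter only through the AR113Q arrays, its difference is given with no test. Of the proton pump, the V-ATPase, the membrane subunit Atp6v0d1 was higher (0.56, adjusted p = 0.0309, limma) and the catalytic subunit Atp6v1a was not called (-0.17, 95% interval from -0.66 to 0.31).

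RAB7 and RAB9 are small GTPases of late endosomes, RAB7 directing fusion with lysosomes and RAB9 the return of receptors to the Golgi. Rab9 had values of 11.24, 11.23, 11.26 and 11.24 in WT and 12.65, 12.65 and 12.59 in AR113Q muscle. Among the 50 genes its WT arrays had the smallest SD, 0.01, and the genotypes differed by far more than the spread within each (1.39 ± 0.13, 2.61-fold, adjusted p = 0.000232, limma). All 3 Rab9 probes passed the test, with log2 fold changes of 1.36 to 1.58, but the array annotation places the probe with 1.36 at chrX:102678330-102678389 on the plus strand, away from the other probes on the minus strand (the brightest at chrX:162895305-162895364, mm9). Rab7 was not called (0.42, 95% interval from -0.14 to 0.97), and its groups overlapped.

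Cathepsins are the lysosomal proteases. Of the 9 measured, Ctsl and Ctsf were higher, Ctsh was lower and 6 did not pass the test. These shares, 22.2% higher and 11.1% lower, stand beside 21.0% and 22.6% of all genes. Ctsl, whose product cathepsin L degrades the autophagosome content and is a known muscle atrophy gene, had values of 13.16, 13.15, 13.05 and 13.03 in WT and 15.17, 15.37 and 14.94 in AR113Q muscle. The WT arrays were nearly equal, and the difference was 2.06 ± 0.15, or 4.17-fold, with the smallest adjusted p of the 50 genes (0.000116, limma). The Ctsl probe lies at chr13:64465287-64465346 (mm9). Ctsh, a cathepsin with aminopeptidase activity, had values of 11.96, 11.58, 11.27 and 11.54 in WT and 9.88, 10.54 and 10.72 in AR113Q muscle. Here AR113Q replicate 1 was the lowest array, and all AR113Q arrays were below WT (-1.21 ± 0.25, 2.31-fold lower, adjusted p = 0.00569, limma). Ctsf was higher by 0.68 (adjusted p = 0.0199, limma). The proteases cathepsin D (Ctsd, with 2 E-box cores in the promoter printed above, 0.29, 95% interval from -0.22 to 0.80) and cathepsin B (Ctsb, -0.36, from -0.94 to 0.21) were not called, and neither were Ctsk, Ctss and Ctsz, whose log2 fold changes lay between -0.20 and 0.03. Ctsa had a log2 fold change of -0.40 (adjusted p = 0.0563, limma) at its brightest probe, and a second probe was well above background on 3 AR113Q arrays but on only 1 WT array, so that it passed the filter through the AR113Q arrays and no direction is drawn from it.

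Of the 3 glycosidases, Neu1, which encodes the sialidase that trims glycoproteins in the lysosome, had values of 10.99, 10.99, 11.28 and 11.13 in WT and 12.60, 12.06 and 12.57 in AR113Q muscle. The groups were clearly apart (1.31 ± 0.18, 2.48-fold, adjusted p = 0.00113, limma). Hexa, the alpha subunit of beta-hexosaminidase, was lower by less than the fold threshold (-0.71, adjusted p = 0.00944, limma). Gaa, the acid alpha-glucosidase whose loss causes Pompe disease, had a log2 fold change of 0.13 with a 95% interval from -0.34 to 0.61 and was not called. Over all 19 genes that did not pass the test, log2 fold changes lay between -0.40 and 0.53, the genotypes overlapped for 12 genes, and for 18 genes the whole interval lay within 1 on the log2 scale.

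Of the 50 genes, 20 had more than 1 kept probe. The probes agreed on the call for 13 genes, among them Bnip3l with 4 probes and Rab9 with 3, and differed for 5, among them Ulk2, Bnip3, Gabarap and Atg12. Ctsa and Mcoln1 are in neither count, since no test is given for their second probes. Only 1 of the 4 Bnip3l probes is placed on the chromosome of the RefSeq gene. The others are placed close together on chromosome 12, so the 4 are not separate readings of the gene. Signs were opposite for Ulk2, Ctsa and Mcoln1, but the second probes of Ctsa and Mcoln1 passed the filter through the AR113Q arrays, where they were brighter, which leaves Ulk2 as the gene with opposite signs at probes well above background on all 7 arrays. With the mean over the probes of a gene in place of the brightest probe, 28 genes were higher, 3 were lower and 15 were upregulated DEGs. The files do not say which exon or transcript end each probe reads, and whether the probes of a gene read different transcripts was not tested.

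**Figure D3:**
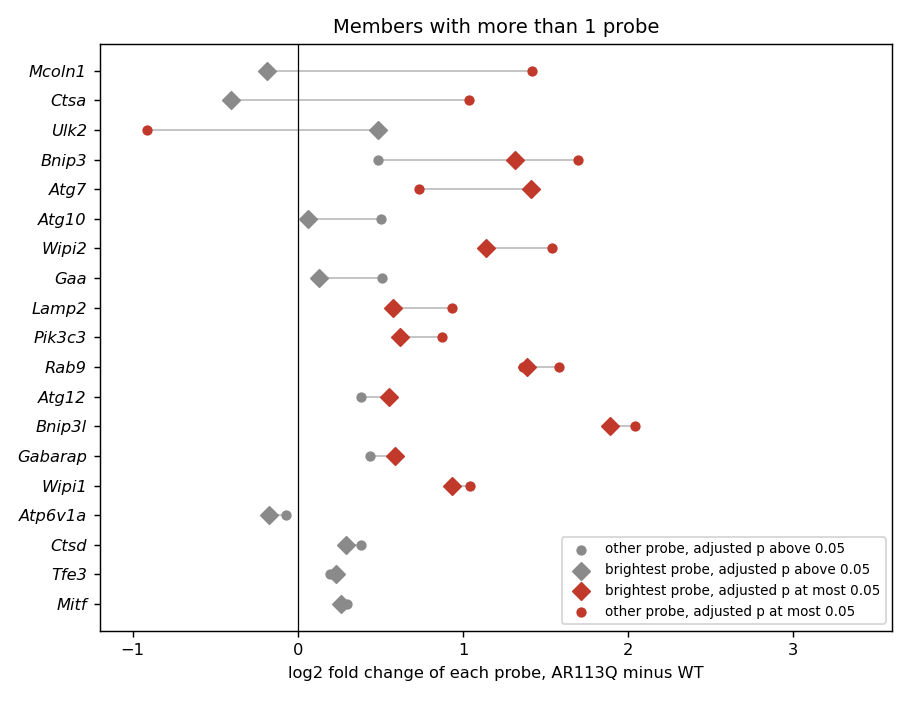
The plot shows the log2 fold change (AR113Q minus WT) of every kept probe of 19 of the 20 genes with more than 1 probe, as a diamond for the brightest probe and a circle for the others, coloured by whether the adjusted p was at most 0.05. The probes of Bnip3l, 3 of which coincide at 1.89, and of Rab9 lie close together at 1.36 to 2.04, whereas those of Ulk2, Ctsa and Mcoln1 lie on both sides of 0, with second probes of Ctsa and Mcoln1 that were not well above background on most or all WT arrays.

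Other genes of the same pathway, 134 in 7 lists of which 130 were tested, were then compared (Atg4a, Rragb, Galc and Mcoln3 were not kept). Of these, 37 were higher and 27 lower (28.5% and 20.8%, beside 21.0% and 22.6% of all genes), and their log2 fold changes had a median of 0.09. In 3 lists on autophagy, 18 of 41 genes were higher and 7 lower, with a median of 0.41. The list of other autophagy machinery had 8 of 19 genes higher and 4 lower. Its most increased DEGs were Uvrag (1.56, adjusted p = 0.000634), a partner of Beclin 1, and Atg2a (1.46, adjusted p = 0.000851), a lipid transfer protein of the growing membrane. Its most decreased were Atg4c (-2.40, adjusted p = 0.000214), a relative of Atg4b, and Rubcn (-1.59, adjusted p = 0.000955, limma for all 4), which encodes Rubicon, an inhibitor of the lipid kinase complex. Other cargo and mitophagy receptors had 5 of 10 genes higher and 3 lower. Retreg1, a receptor for the endoplasmic reticulum also known as FAM134B, rose by 2.76 (adjusted p = 5.54e-05) from 10.44, 10.80, 10.85 and 10.86 in WT to 13.43, 13.46 and 13.60 in AR113Q muscle. Calcoco1, another receptor for the endoplasmic reticulum, rose by 2.18 (adjusted p = 0.0016), while Stbd1 (-1.43, adjusted p = 0.00313), which binds glycogen, and Fundc1 (-1.26, adjusted p = 0.00181, limma for all 4), a mitochondrial receptor, fell. Of 12 genes of fusion and tethering, 5 were higher, none was lower and none was a DEG.

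The kinases mTORC1 and AMPK set the activity of the ULK complex according to nutrients and energy. Of 24 genes of these inputs, 9 were higher and 3 lower (37.5% and 12.5%, beside 21.0% and 22.6% of all genes), and the median log2 difference was 0.33. The 9 include Rheb, which was well above background on 3 AR113Q arrays and 1 WT array and so passed the filter through the AR113Q arrays. Sestrins restrain mTORC1 when amino acids are scarce. Sesn2 rose by 1.38 (adjusted p = 0.00048, limma), from 6.70, 6.72, 6.47 and 6.41 in WT to 8.03, 7.80 and 8.04 in AR113Q muscle. Sesn1 had values of 4.75, 10.56, 10.08 and 10.06 in WT and 13.39, 13.57 and 13.61 in AR113Q muscle. WT replicate 1 was far below the other WT arrays, and the difference of 4.66 ± 1.28 (adjusted p = 0.0198) became 3.29 ± 0.20 without it (adjusted p = 0.000308, limma for both). Without AR113Q replicate 1 or 2 Sesn1 was not called, at 4.73 and 4.64 (adjusted p = 0.0568 and 0.0562, limma). Rragd, a Rag GTPase that recruits mTORC1 to lysosomes, fell by 1.55 (adjusted p = 0.00031), and Prkaa2, the muscle catalytic subunit of AMPK, fell by 1.34 (adjusted p = 0.000867, limma for both).

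In the 3 further lists on lysosomes, 10 of 65 genes were higher and 17 lower (15.4% and 26.2%, beside 21.0% and 22.6% of all genes). Other V-ATPase subunits had 5 of 15 genes higher and 1 lower, and its DEGs were Atp6v1h (1.61, adjusted p = 0.000281), a regulatory subunit, and Atp6ap2 (1.28, adjusted p = 0.00274, limma for both), an accessory protein. Other lysosomal membrane genes had 3 of 19 genes higher and 4 lower, with Npc1 (1.46, adjusted p = 0.00388), the cholesterol exporter, upregulated and Laptm4b (-1.42, adjusted p = 0.000558, limma for both) downregulated. Other lysosomal hydrolases had 2 of 31 genes higher and 12 lower, beside 22.6% lower over all genes. The median log2 difference was -0.44, but -0.17 with the authors' values and -0.19 without background subtraction or with normexp. Among its most decreased DEGs was Pla2g15, a lysosomal phospholipase (-1.38, adjusted p = 0.00241, limma).

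**Figure D4:**
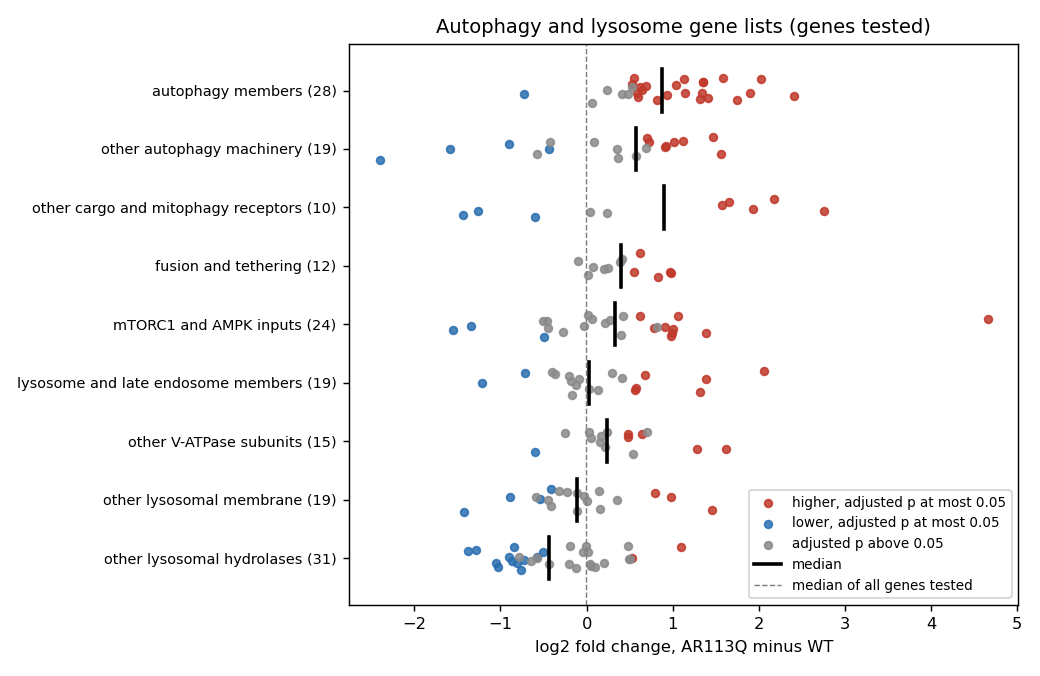
Each point is a gene, placed by its log2 fold change (AR113Q minus WT) and coloured by its call, with the number of genes tested in brackets, black bars for the median of a list and a dashed line for the median of all genes. The lists on autophagy have medians of 0.40 to 0.90 and the other lysosomal hydrolases one of -0.44 (-0.17 with the authors' values); the 3 MiT/TFE factors are not drawn.

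Macrophages are rich in lysosomal hydrolases, so markers of other cells were measured beside these lists. The counts of each marker list stand beside 21.0% of all genes higher and 22.6% lower. In percent, the lower markers were 40% for macrophages, 75% for fibroblasts, 83.3% for adipocytes, 12.5% for muscle fibres and 14.3% for endothelium. Of 15 macrophage markers, 1 was higher (Cd163, 1.18) and 6 were lower, Cx3cr1 being 1 of the 6 and the others including Adgre1 (-1.94, adjusted p = 0.00158), Csf1r (-1.15, adjusted p = 0.0097) and Lyz2 (-1.30, adjusted p = 0.0179, limma for all 3). Cx3cr1 was well above background on the 4 WT arrays and not well above background on any of the 3 AR113Q arrays, so that it passed the filter only through the WT arrays, and was at least 2.12-fold lower. The summed level of the 15 markers was 11898 to 19872 intensity units on the WT arrays and 8862 to 12575 on the AR113Q arrays, and these ranges overlapped. Of 8 fibroblast markers 6 were lower (summed level 106702 to 129809 in WT and 76048 to 106942 in AR113Q muscle), and of 6 adipocyte markers 5 were lower (34197 to 67789 in WT and 11852 to 20725 in AR113Q muscle). Of the 8 muscle fibre markers 1 was lower, Ckm (-0.80, adjusted p = 0.0102, limma), and Acta1, Myh4 and Pvalb were not called, with summed levels of 1101327 to 1225857 in WT and 906146 to 1122498 in AR113Q muscle. The summed levels were 5825 to 7245 in WT against 3787 to 5658 in AR113Q muscle for endothelial markers (1 of 7 higher, 1 lower), and 887 to 2622 against 571 to 685 for Schwann cell markers (1 of 3 higher, 1 lower). For erythrocyte markers they were 44357 to 213969 against 45160 to 57670 and for satellite cell markers 1025 to 1490 against 845 to 1351, with no gene called. The part of these cells in the lower hydrolase values, or in any other value, was not tested.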

How the data were processed

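Cy3-labelled RNA was hybridized to Agilent mouse arrays, and the authors scanned them and extracted the spots with Agilent Feature Extraction 10.7.3.1, per the labels. Scanner files as deposited give for each spot a processed intensity, from which background and a spatial trend were taken off on each array, without scaling across arrays, and also the mean spot and median background intensity. A table of log2 values that the authors quantile normalized, per their methods, was deposited too, and its 18592 probes matched the scanner files. Control spots and spots marked as outliers were removed, log2 of the background-subtracted intensity was quantile normalized, and replicate spots were averaged. Probes well above background on 3 or more of 7 arrays stayed in (20991 of 39429 probes), and the kept probe with the highest mean represented a gene. Names came through RefSeq accessions (28324 probes), otherwise from the files. Dim probes are affected most by background subtraction, and the number of arrays limits the precision.

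The lmFit and eBayes functions of limma 3.58.1 (R 4.3.3) compared AR113Q with WT, with Benjamini-Hochberg adjustment over 16577 genes, or over the kept probes where several probes of a gene are given. The procedure was tested on simulated data. The p-values measure the spread between these arrays. No set test was run on any list. The 50 genes and the other lists were chosen with earlier results of these data known. All 50 genes are counted, 1 of them and some genes of the other lists are not reported here by name, and the rest are given, DEGs among them with each array, called genes under the fold threshold with log2 fold change and adjusted p, and of each other pathway list the 2 most increased and the 2 most decreased DEGs. Promoters came from a RefSeq table of GRCm38.p6, and positions of probes (mm9) from the array annotation.

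Alternative settings were 75th percentile scaling, normexp with an offset of 50, no background subtraction, the authors' values, no filter or a filter on all 7 arrays, the mean over probes, outlier spots kept, an eBayes trend, array weights, slide as a random or fixed block, the shared slide alone, a replicate block and leaving out each array. Same-numbered arrays of the genotypes did not deviate together (r of 0.04, -0.02 and 0.16), so replicate numbers were not taken to pair them.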

Additional observations from a re-analysis of the deposited data

Results flagged for a closer look

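In the 4 WT arrays, 1 array stood apart from the others for 4 of the 77 genes and marker sums examined, by a gap whose share of the whole range was above Dixon's 95% critical value, which chance passes in about 1 of 20 such groups. For Sesn1, WT replicate 1 was at 4.75 and the nearest WT array at 10.06, a gap of 0.914 of the range. For Uvrag, WT replicate 2 was the highest at 9.93, with the nearest at 9.55 (0.833 of the range). For Retreg1, WT replicate 1 was the lowest at 10.44, with the nearest at 10.80 (0.843 of the range). The summed level of Schwann cell markers was 2622 on WT replicate 2 and 1164 on the nearest WT array (0.840 of the range). No WT group of the 50 autophagy and lysosome genes was among them.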

How the results depend on the processing

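The count of 28 higher genes among the 50 lay between 26 and 29 under scaling to the 75th percentile, all background corrections, the authors' values, both filters, the mean over probes, outlier spots kept, an eBayes trend, array weights and slide as a random block. Lower genes numbered 5, not 3, with the authors' values, without background subtraction and with normexp. The median of the 50 genes was then 0.45, 0.50 and 0.47, against 0.57. Some upregulated DEGs fell under the fold threshold in at least 1 alternative setting. Their lowest log2 fold changes included 0.61 (Optn), 0.66 (Atg4b), 0.87 (Wipi2), 0.92 (Atg7) and 0.97 (Bnip3). With slide as a fixed block, which leaves the 2 arrays of the shared slide to set the difference, limma called 0 of the 50 genes higher, 0 lower, 0 upregulated and 0 downregulated DEGs, 0 of the other autophagy genes higher, 0 of the other hydrolases lower, and 0 genes of all 16577, while 28 of the 50 and 6195 of all 16577 genes had an unadjusted p of at most 0.05. The medians were then 0.90 for the 50 genes, 0.54 for the other autophagy genes and -0.52 for the other hydrolases, as within the shared slide. The median of the other autophagy genes was 0.29 with the authors' values. That of the other hydrolases was -0.17 with the authors' values, -0.31 with the mean over probes, -0.19 without background subtraction or with normexp and -0.33 without a filter. Scaling to the 75th percentile moved the median of all genes to -0.07. With the replicate block, 20 of the 50 genes were higher, 3 lower and 16 upregulated DEGs, against 16.1% of all genes higher, and 14 other autophagy genes were higher.

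Leaving out each array in turn gave 21 to 29 higher (against 16.8% to 21.7% of all genes), 3 lower each time, 14 to 17 upregulated and 0 to 1 downregulated DEGs among the 50, and a median of 0.47 to 0.66. For the other autophagy genes it gave 15 to 20 higher with a median of 0.37 to 0.52, and for the other hydrolases 9 to 13 lower with a median of -0.46 to -0.30. The downregulated DEG, Ctsh, fell under the fold threshold without AR113Q replicate 1. Signs reversed for genes that were not called. Atg10 was at -0.0053 without background subtraction, -0.0028 with normexp, -0.42 with slide as a fixed block and -0.17 (without AR113Q replicate 3) to 0.33 on leaving out arrays. Atp6v1a was at 0.19 with the slide block and at -0.39 to 0.039 (without AR113Q replicate 3) on leaving out arrays. Ctss was at -0.71 with the slide block and at -0.28 (without AR113Q replicate 2) to 0.27 on leaving out arrays, being below 0 without WT replicate 3 as well, and Gaa at -0.021 (without AR113Q replicate 1) to 0.35. With the mean over probes Ctsa was at 0.32, Mcoln1 at 0.62 (each with a probe not well above background on most or all WT arrays) and Ulk2 at -0.22. The cause of these moves was not tested, apart from the slide block and the mean over probes, which by construction use other arrays or probes.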
